A study of Mus musculus with 6 samples.

Results

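The Slc25a genes encode the mitochondrial carriers, and 47 of them had a probe on the array, of 37163 genes in all. That total, and each count of all genes below, includes array identifiers without a RefSeq symbol, each counted as a gene. A symbol was found for 26413 of the 55681 probes. A gene belonged to the family here when the array paired a probe with a RefSeq transcript of a gene whose symbol starts with Slc25a, and each gene was represented by its brightest probe. The 47 genes had 56 probes between them, and 38 genes had a single probe. A gene was tested where its probe stood well above background on 3 or more arrays, which 40 of the 47 did, among 23266 genes tested in all. The samples were total RNA from C57BL/6 mice, labelled as mesenchymal stem cells from marrow, which the study obtained by labelling and sorting marrow cells. There were 3 samples from mice aged 3 months (young) and 3 from mice aged 24 months (old), with no other treatment or allele named. The markers used for the sort are not given in the sources used here, nor is whether each sample came from 1 animal or from a pool. The p-values therefore reflect how far these samples differ from each other, and some of that spread could be technical.

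Mitochondrial carriers are small proteins built from a repeated pair of membrane-spanning helices. Most sit in the inner mitochondrial membrane and exchange a metabolite of the matrix for one of the intermembrane space, such as ADP for ATP or citrate for malate. Their cargo ranges from nucleotides and phosphate to amino acids, carboxylates, acylcarnitines, cofactors and iron. In bone marrow the family is best known for the carriers that feed iron and glycine into haem synthesis in developing red cells.

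No Slc25a gene changed with age past the threshold. Limma called 0 of the 40 at an adjusted p under 0.05, where 8.01% of all genes tested were called (1864 genes; 925, or 3.98%, were higher and 939, or 4.04%, lower in old samples). The number of genes past the adjusted threshold depended on single arrays. It fell to 1 gene without old replicate 2, 5 without old replicate 3 and 63 without young replicate 2. It was 320 without young replicate 3, 768 without young replicate 1 and 1154 without old replicate 1. At an unadjusted limma p under 0.05 the count moved less, from 6470 with all arrays to between 4959 and 6319 with 1 left out. The share of calls higher in old samples was 49.6% with all arrays, 48.4% without old replicate 1 and 40.9% without young replicate 1. It was 20.6% without young replicate 2 and 24.7% without young replicate 3. Without old replicate 2 or old replicate 3 it was 0%, of only 1 and 5 calls. No member was called in any of these 6 fits. At an unadjusted limma p under 0.05 there were 6 members, 5 higher and 1 lower in old samples, which is 15% against a background of 27.8%. The median log2 fold change, old minus young, was 0.02 for the members and 0.07 for all genes tested. Of the 40 fold changes 24 were positive, a share of 60.0% against 60.2% for all genes. The smallest adjusted p of any member was 0.0814.

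The limma intervals show how precisely each difference between these samples was measured. They hold for 1 gene at a time and are not adjusted over the 40 members. Nor do they cover an effect of an array's place on the slide or of the choice of scaling. The 95% limma interval of the fold change lay wholly within 2-fold in either direction for 36 of the 40 members, against a background of 82.2% of all genes, and within 1.5-fold for 29 members, against 56.2%. The 4 whose intervals reached beyond 2-fold were Slc25a2, Slc25a15, Slc25a29 and Slc25a41, all of them dim: none was well above background on all 6 arrays. For the 35 members that were, the log2 fold changes ran from -0.32 to 0.39.

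**Figure D1:**
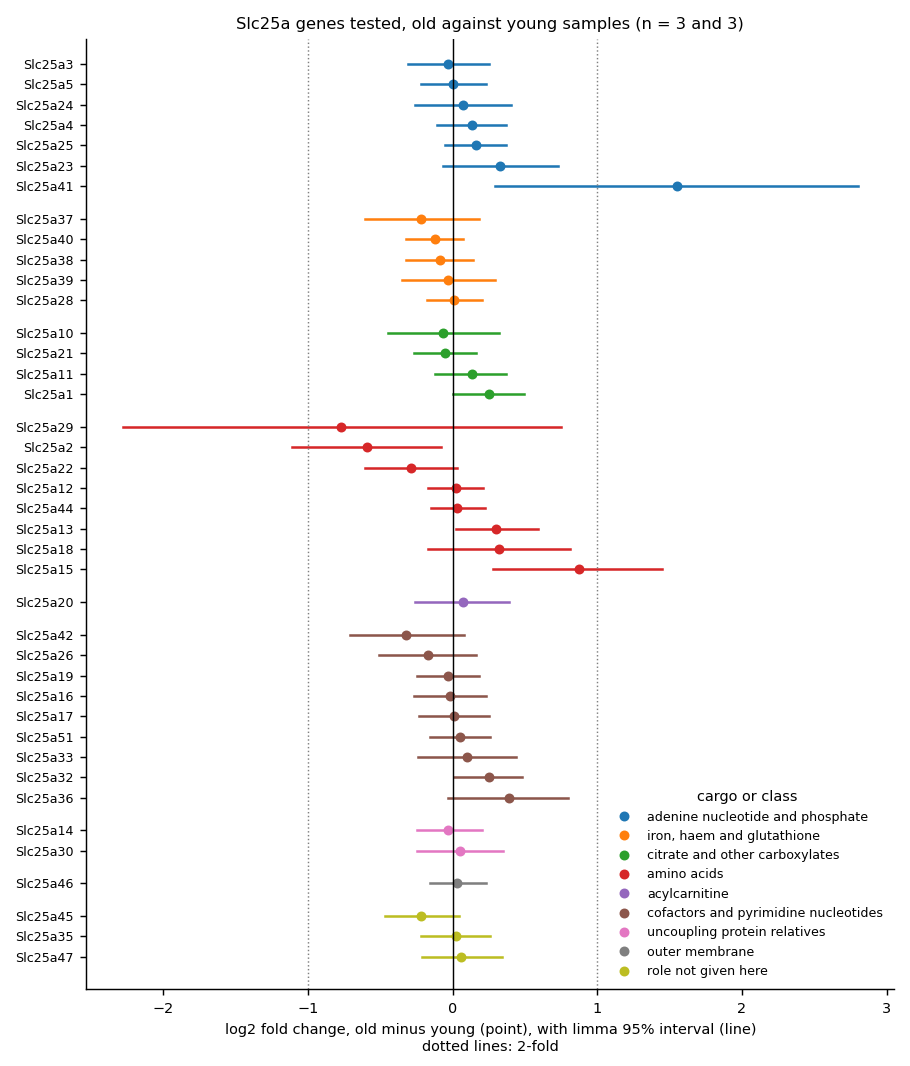
Log2 fold change, old minus young, of the 40 Slc25a genes tested (points) with its 95% limma interval (lines), coloured by cargo or class; n = 3 samples per group, and dotted lines mark 2-fold. Most points lie close to 0, and the widest intervals belong to Slc25a41 and Slc25a29.

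**Figure D2:**
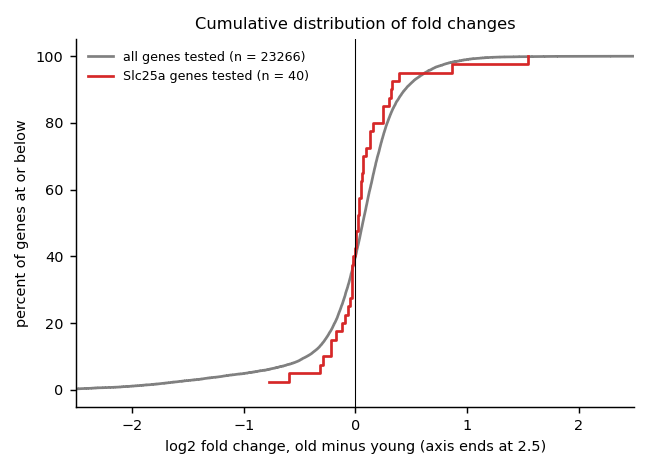
Cumulative percent of genes at or below a log2 fold change, old minus young, for the 40 Slc25a genes (red) and all 23266 genes tested (grey). The axis ends at 2.5 in both directions, beyond which some of all genes but no Slc25a gene lie; the medians are 0.02 and 0.07.

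To show the sequence around the starts of these genes, the RefSeq promoter table of assembly GRCm38.p6 was searched for 6 motifs on both strands, in windows of 300 bases that run from 250 bases before to 50 after a start. It held 36 of the 47 genes in 46 windows, and 32851 windows in all. The E-box CACGTG, which reads the same on both strands, was in 17.4% of the family's windows and 7.15% of all windows. The GATA motif AGATAA was in 6.52% against 11.2%, the ETS motif CCGGAAGT in 2.17% against 3.89%, and the palindromic NRF1 motif, of 10 letters, in 0% against 0.971%. CCAAT was in 47.8% against 37.4% and the GC box GGGCGG in 82.6% against 35.7%. None of the motifs contains another. A match is a description of the letters and not evidence that a factor binds, and several windows of 1 gene overlap.

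The E-box was singled out after its matches and the fold changes had been seen. The 7 genes with a match were Slc25a1, Slc25a13, Slc25a14, Slc25a15, Slc25a31, Slc25a33 and Slc25a36, and 4 of them are shown because they are also among the members whose young and old values did not overlap. The lines give the 250 bases before the start, 5′ to 3′ in the direction of the gene, with the E-box in capitals. They come from chr16:17928220-17928469 on the minus strand, chr6:6217174-6217423 on the minus strand, chr8:22398278-22398527 on the minus strand and chr9:97111042-97111291 on the minus strand, in that order.
Slc25a1: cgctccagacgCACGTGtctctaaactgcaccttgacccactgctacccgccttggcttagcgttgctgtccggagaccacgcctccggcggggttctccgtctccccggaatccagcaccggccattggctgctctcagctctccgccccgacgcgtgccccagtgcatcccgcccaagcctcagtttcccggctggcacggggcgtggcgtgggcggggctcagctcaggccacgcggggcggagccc
Slc25a13: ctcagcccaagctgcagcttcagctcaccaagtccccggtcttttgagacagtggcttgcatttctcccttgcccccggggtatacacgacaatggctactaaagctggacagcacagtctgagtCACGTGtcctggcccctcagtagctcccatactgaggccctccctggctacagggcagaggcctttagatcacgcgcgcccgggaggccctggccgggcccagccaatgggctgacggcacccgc
Slc25a15: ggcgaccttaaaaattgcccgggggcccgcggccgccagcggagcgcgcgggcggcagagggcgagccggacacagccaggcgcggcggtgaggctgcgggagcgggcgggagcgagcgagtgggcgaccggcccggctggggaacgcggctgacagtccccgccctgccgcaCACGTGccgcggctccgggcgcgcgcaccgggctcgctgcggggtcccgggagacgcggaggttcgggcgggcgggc
Slc25a36: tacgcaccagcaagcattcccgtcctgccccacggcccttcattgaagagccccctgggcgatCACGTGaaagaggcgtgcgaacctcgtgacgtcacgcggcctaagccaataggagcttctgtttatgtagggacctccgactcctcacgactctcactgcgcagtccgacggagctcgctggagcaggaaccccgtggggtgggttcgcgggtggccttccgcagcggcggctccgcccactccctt
The first base of the E-box stood at -239, -125, -77 and -187 from the start in Slc25a1, Slc25a13, Slc25a15 and Slc25a36. Their log2 fold changes were 0.25, 0.30, 0.87 and 0.39. The other 2 tested genes with a match had values close to 0, -0.03 for Slc25a14 and 0.10 for Slc25a33, and Slc25a31 was not tested. The 4 genes shown were picked for values that did not overlap, so their fold changes cannot show a link between the E-box and age. Such a link was not tested.

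The values below are log2 signals relative to the 75th percentile of the array, so that 0 is the brightness of the probe at that percentile. They compare samples for 1 gene and not 1 gene with another, because probes differ in brightness. The adenine nucleotide and phosphate carriers had 7 tested members, none called in either direction, with a median log2 fold change of 0.13. Slc25a4, an ADP/ATP exchanger, read 4.97, 5.18 and 5.07 in the young samples, given here and below in the order of replicates 1 to 3, and 5.10, 5.29 and 5.20 in the old samples. The groups overlapped, and the log2 fold change was 0.13 ± 0.10 (SE, n = 3 and 3, adjusted p = 0.442). Slc25a5, the other widely expressed ADP/ATP exchanger, read 6.05, 6.19 and 6.21 in young samples and 6.11, 6.26 and 6.08 in old samples. Its fold change was 0.00 ± 0.09 (adjusted p = 0.99), and because RefSeq lists a pseudogene of it, a signal shared with that copy cannot be told apart. Slc25a3, the phosphate carrier that supplies ATP synthase, read 5.98, 6.11 and 6.30 in young samples and 6.03, 6.22 and 6.05 in old samples. These overlapped as well, with a log2 fold change of -0.03 ± 0.11 (adjusted p = 0.895). The calcium-regulated ATP-Mg/phosphate carriers Slc25a23, Slc25a24 and Slc25a25 had values of 0.33, 0.07 and 0.16.

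The iron, haem and glutathione carriers had 5 members, all tested and none called, with log2 fold changes from -0.22 to 0.01 and a median of -0.09. Slc25a37 (mitoferrin 1), which imports iron in developing red cells, read 5.89, 5.47 and 5.97 in young samples and 5.65, 5.37 and 5.65 in old samples. The second replicate was the lowest of each group, the groups overlapped, and the log2 fold change was -0.22 ± 0.16 (adjusted p = 0.431). Slc25a28 (mitoferrin 2), its more widely expressed relative, read 2.48, 2.49 and 2.38 in young samples and 2.44, 2.44 and 2.5 in old samples, a difference of 0.01 ± 0.08 (adjusted p = 0.946). Slc25a38, which brings in glycine for the first step of haem synthesis, read 5.64, 5.54 and 5.71 in young samples and 5.56, 5.43 and 5.62 in old samples. The groups overlapped here too, and the log2 fold change was -0.09 ± 0.09 (adjusted p = 0.572). Slc25a39, a carrier needed for mitochondrial glutathione, read 0.59, 0.89 and 1.05 in young samples and 0.82, 0.85 and 0.76 in old samples, with a difference of -0.03 ± 0.13 (adjusted p = 0.907). The old values of its relative Slc25a40 lay below all young values, at a log2 fold change of -0.12 ± 0.08 (adjusted p = 0.369).

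Of the 4 carriers of citrate and other carboxylates, all tested, none was called. Slc25a1, which exports citrate for the synthesis of fatty acids and sterols, read 3.02, 3.02 and 2.89 in young samples and 3.16, 3.38 and 3.14 in old samples. Every old value lay above every young value, but the log2 fold change of 0.25 ± 0.10 missed the threshold (adjusted p = 0.174). Slc25a11, the oxoglutarate carrier of the malate-aspartate shuttle, read 4.44, 4.60 and 4.54 in young samples and 4.57, 4.80 and 4.59 in old samples. Its groups overlapped, at 0.13 ± 0.10 (adjusted p = 0.459). The dicarboxylate carrier Slc25a10 and the oxodicarboxylate carrier Slc25a21 had values of -0.07 and -0.05.

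The amino acid carriers had 8 members, all tested and none called, with log2 fold changes from -0.77 to 0.87 and a median of 0.03. Slc25a12, an aspartate/glutamate exchanger of the malate-aspartate shuttle, read 3.78, 3.83 and 3.90 in young samples and 3.84, 3.83 and 3.89 in old samples. The groups overlapped, at 0.02 ± 0.08 (adjusted p = 0.914). Its close relative Slc25a13 (citrin) read 1.18, 1.28 and 0.99 in young samples and 1.44, 1.59 and 1.32 in old samples. The groups did not overlap, and the log2 fold change was 0.30 ± 0.12 (adjusted p = 0.16). Slc25a15, the ornithine carrier of the urea cycle, read -3.76, -3.22 and -4.20 in young samples and -2.95, -2.85 and -2.78 in old samples. All old values were higher, at 0.87 ± 0.24 (adjusted p = 0.0814), and the probe was well above background on 2 of 3 young and 3 of 3 old arrays. Slc25a2, a second ornithine carrier, was well above background on 3 of 3 young and on no old array, with a signal at least 1.33-fold lower in old samples and an adjusted p of 0.138. It passed the filter through the young arrays alone, which favours a lower value in old samples. Slc25a29, a carrier of basic amino acids, had the most negative value, -0.77 ± 0.62 (adjusted p = 0.466). It rested on old replicate 3, at -5.49, and the value without that sample was -0.04.

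Slc25a20, which carries acylcarnitines into the matrix for fatty acid oxidation, read -1.11, -1.18 and -0.76 in young samples and -1.03, -0.84 and -0.99 in old samples. The groups overlapped, and the log2 fold change was 0.07 ± 0.13 (adjusted p = 0.788). The 9 carriers of cofactors and pyrimidine nucleotides were all tested, and none was called, with values from -0.32 to 0.39 and a median of 0.01. Slc25a36, a pyrimidine nucleotide carrier, had the highest of these values, 0.39 ± 0.17 (adjusted p = 0.206). Slc25a32, linked to folate and flavin transport, read 0.25 ± 0.10 (adjusted p = 0.164). Slc25a42, the coenzyme A carrier, had the lowest, -0.32 ± 0.16 (adjusted p = 0.267). Slc25a51, the NAD carrier, read 0.05 ± 0.09. Of the 3 relatives of the uncoupling proteins, Slc25a14 and Slc25a30 were tested and read -0.03 and 0.05, and the outer membrane protein Slc25a46 read 0.03. Of the 8 genes given no role here, Slc25a35, Slc25a45 and Slc25a47 were tested, with values from -0.22 to 0.06.

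Young and old values did not overlap in 8 of the 40 members, against 36.0% of all genes tested. Chosen after their values were seen, these were Slc25a1, Slc25a13, Slc25a15, Slc25a32, Slc25a36 and Slc25a41, higher in old samples, and Slc25a40 and, having passed the filter through the young arrays alone, Slc25a2, lower in old samples. The widest difference was that of Slc25a41, a relative of the ATP-Mg/phosphate carriers, which read -3.92, -3.44 and -5.01 in young samples and -3.17, -2.82 and -1.73 in old samples. Its log2 fold change was 1.55 ± 0.52 (adjusted p = 0.12), with the probe well above background on 2 young and 3 old arrays. Both it and Slc25a15 had their lowest value in young replicate 3, as did Slc25a1, Slc25a13, Slc25a32 and Slc25a36. Without that sample the values of Slc25a41 and Slc25a15 were 1.1 and 0.63 (adjusted p = 0.233 and 0.136). Those of Slc25a1, Slc25a13, Slc25a32 and Slc25a36 were then 0.21, 0.22, 0.18 and 0.21, against 0.25, 0.30, 0.25 and 0.39 with all samples. Young replicate 3 was the lowest young sample for 21 of the 40 members (52.5%), against 38.6% of all genes. With normexp background correction, which uses the median spot and background signals, Slc25a15 and Slc25a41 passed the threshold, at 0.46 (adjusted p = 0.0166) and 0.68 (adjusted p = 0.0363), where 12.4% of all genes were called. The same correction put Slc25a2 at 0.0 (adjusted p = 0.989).

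**Figure D3:**
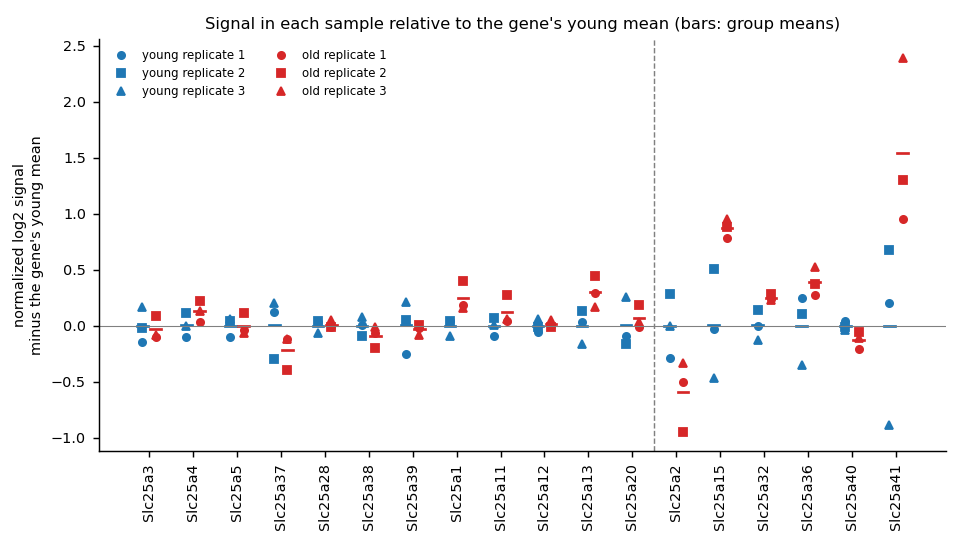
Normalized log2 signal of each sample minus the gene's young mean, for the 12 Slc25a genes given by sample whatever their result (left of the dashed line) and 6 further members whose groups did not overlap (right); blue is young, red is old, symbols are replicates, bars are group means. Left of the line the groups overlap for all genes but Slc25a1 and Slc25a13, whose old values all lie above the young ones. Young replicate 3 is the lowest point for Slc25a28, Slc25a1, Slc25a13, Slc25a15, Slc25a32, Slc25a36 and Slc25a41.

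The remaining 7 members were not tested. No array had a signal well above background for Slc25a31 (the germ-cell ADP/ATP exchanger), Slc25a34, Slc25a43, Slc25a48 or Slc25a54. Slc25a27, an uncoupling protein relative, was so on 1 array and Slc25a53 on 2 arrays, all young. Several probes were present for 9 genes, 8 of which had a second probe that could be tested, and in 5 of these the second probe had a fold change of opposite sign. For Slc25a37 the second probe read 0.03 ± 0.17 against -0.22 for the first. For Slc25a44, a carrier of branched-chain amino acids, it read 0.36 ± 0.10 against 0.03, with a limma p adjusted over all probes of 0.0801.

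Close relatives were compared by their ratio within each array, in 8 pairs with exact two-sided permutation tests over samples, whose smallest possible p is 0.1 with 3 against 3. No pair passed, and the smallest p adjusted over the 8 pairs was 0.48. The log2 ratio of Slc25a4 to Slc25a5 was -1.08, -1.01 and -1.14 in young samples and -1.01, -0.97 and -0.88 in old samples, a difference of 0.13 ± 0.06 with overlapping groups (exact p = 0.2). The ratio of Slc25a37 to Slc25a28 differed by -0.23 ± 0.20 (exact p = 0.3), and that of Slc25a12 to Slc25a13 by -0.29 ± 0.14 (exact p = 0.2). Only the glutamate carriers Slc25a18 and Slc25a22 had ratios that did not overlap, with a difference of 0.61 ± 0.23 (exact p = 0.1), and the Slc25a18 probe was well above background on 4 of the 6 arrays.

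Genes that work with the carriers were read from the same fit. Of 76 listed genes 72 were tested, and 1 was called, which is 1.39% against the background of 8.01%. This was Mcu, the pore of the mitochondrial calcium uniporter, which read -2.76, -2.66 and -2.49 in young samples and -2.15, -1.95 and -2.05 in old samples. It rose by 0.59 ± 0.11 (adjusted p = 0.0332). Without any 1 of the 6 samples the difference was 0.52 to 0.66, and the adjusted p of 0.0526 to 0.102 missed the threshold. So did cyclic loess scaling, at 0.53 (adjusted p = 0.0562), and the deposited log2 values, at 0.46 (adjusted p = 0.061). Sfxn5, a sideroflexin of the inner membrane, read -0.88 ± 0.28 (adjusted p = 0.106).

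The machinery that imports carriers into the membranes (TOM and small TIM subunits, the TIM22 complex) had 16 tested genes, none called. Of these, 13 were positive, where 60.2% of all genes were, and 10 did not overlap between the groups, where 36.0% of all genes did not. Their median was 0.18, against 0.07 for all genes. These counts and this median were read with the main scaling only, and quantile normalization put the median of all genes at 0.02. Tomm40, the import pore of the outer membrane, read 0.29 ± 0.08 (adjusted p = 0.0855), and Timm13, a chaperone of the intermembrane space, 0.29 ± 0.10 (adjusted p = 0.114). The 11 haem synthesis genes, none called, had a median of -0.12, with 3 positive and 3 that did not overlap between the groups. Alas1, the housekeeping first enzyme of the pathway, read -0.28 ± 0.11 (adjusted p = 0.172).

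None of the 13 fatty acid oxidation genes was called. Hadh read 0.66 ± 0.17 (adjusted p = 0.0733) and Hadha 0.25 ± 0.09 (adjusted p = 0.143), both enzymes of the oxidation spiral. Acadl, an acyl-CoA dehydrogenase, had a value of 3.01 (adjusted p = 0.449), with young replicate 3 at -6.26 and the other 5 samples at 2.47 to 2.62. The median of the list was 0.09, and 0.08 over the 12 genes without Acadl. Of the shuttle enzymes, 0 of 8 were called, with Got2 at 0.20 ± 0.08 (adjusted p = 0.148) and Acly at 0.22 ± 0.09 (adjusted p = 0.178). Of the mitochondrial folate and serine genes, 0 of 5 were called, with Shmt2 at 0.30 ± 0.09 (adjusted p = 0.098) and Mthfd2 at 0.30 ± 0.09 (adjusted p = 0.104). Of the family members that carry other names, 0 of 4 tested were called, with Mtch2 at 0.18 ± 0.07 (adjusted p = 0.17) and Ucp3 at -0.18 ± 0.11 (adjusted p = 0.312).

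**Figure D4:**
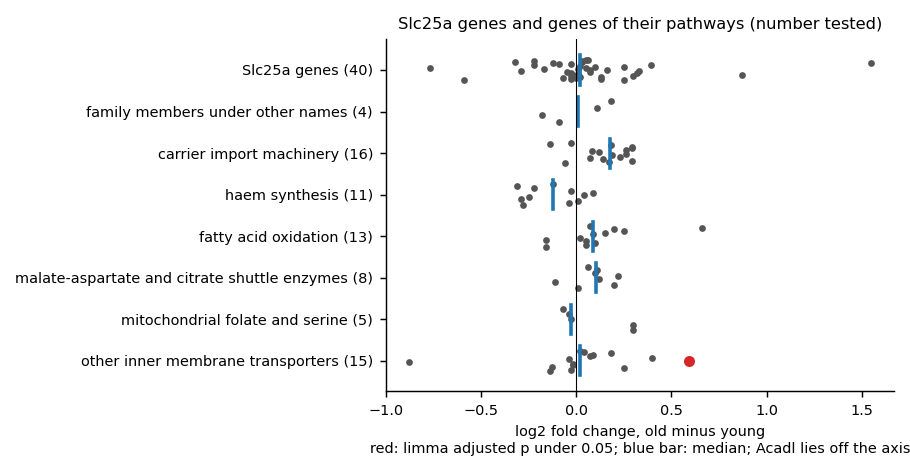
Log2 fold change, old minus young, of the Slc25a genes and of 7 lists of genes that work with them (1 point per gene tested, number tested in brackets, blue bar the median, red a limma adjusted p under 0.05). Mcu is the single red point; Acadl, at 3.01, lies beyond the axis and is not drawn.

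Markers of marrow cell types were read beside these values, where 4.04% of all genes were called lower in old samples and 3.98% higher. Of the leukocyte markers 6 of 10 tested fell with age (median -1.40), of the neutrophil markers 6 of 15 (median -1.21), of the B cell markers 6 of 11 (median -2.33) and of the monocyte and macrophage markers 6 of 8 (median -2.04). One of the last, Mrc1, passed the filter through the young arrays alone, which favours a fall. Of 13 erythroid markers none was called, with a median of -0.02, and their summed level ran from 1190.9 to 1663.7 in young and from 1336.9 to 1458.7 in old samples. The summed leukocyte level ran from 107.01 to 202.4 in young and from 58.2 to 70.4 in old samples, where a level of 1 is the array's 75th percentile. The neutrophil sum ran from 1973.5 to 2964.9 and from 1338.0 to 1657.0, the B cell sum from 39.7 to 77.6 and from 7.0 to 15.8, and the monocyte and macrophage sum from 12.8 to 23.3 and from 7.8 to 8.6, in young and old samples in turn. Such sums rest mostly on the brightest probes, Hba-a1 and Hbb-bt among the erythroid markers and S100a8 and S100a9 among the neutrophil markers. Among the 14 stromal markers, no array had a signal well above background for the defining genes Pdgfra, Pdgfrb, Prrx1, Twist1 and Foxc1. Others, namely Lepr, Cxcl12, Col1a2, Eng and Thy1, were measured well above background on each array. Among the 8 tested, Lepr rose (3.62 to 3.93 in young samples, 4.59 to 5.04 in old samples), and Cxcl12, Thy1 and Col1a1 fell, Col1a1 having passed the filter through the young arrays alone. The median of the 8 was -1.98, whereas the sum over the list, which includes Lepr, ran from 23.5 to 36.4 in young and from 34.6 to 42.3 in old samples. The part of these markers in the carriers' values was not tested, and fewer cells of a type cannot be told apart from less RNA per cell. All 6 arrays lay on 1 slide, young in the first row and old in the second, and the effect of row cannot be told apart from that of age; the share of probes well above background was 55.3% to 60.0% in young samples and 50.9% to 53.4% in old samples, with no overlap. Its part in the carriers' values was not tested.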

How the data were processed

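Total RNA from 6 samples was measured on 1-colour Agilent arrays. Per the file headers, the deposited scanner intensity is background-subtracted and detrended within each array, from Feature Extraction version 10.7.3.1, while 10.5.1.1 is the version in the submitters' processing notes. The authors also deposited a log2 table (52095 of 55681 probes), used as an alternative; how it was scaled is not given in the sources. Array number limits the precision.

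Control and outlier spots were left out, repeated spots averaged, and each array's 75th percentile over probes subtracted on the log2 scale. Scaling was first run with the percentile over spots and then changed to probes, to match an earlier processing of these data, after both results had been seen: 1953 genes were called with spots and 1864 with probes, with no Slc25a gene called by either. Symbols came from RefSeq (GRCm38.p6) by accession, for 26413 probes. Any other identifier on the array was counted as a gene under its own name. The filter kept genes whose brightest probe passed the scanner's background test on 3 or more arrays. The age comparison used limma 3.58.1 (R 4.3.3) without covariates, with Benjamini-Hochberg adjustment over all genes tested and a threshold of 0.05. Tables were made with Python 3.11.15 and pandas 2.3.3. For a gene below background on every array of a group, the fold compares group means. The dim group is set at the dimmest probe that passed the background test or the gene's own signal if higher. This fold leaves out the spread between samples. Normexp (offset 50) used the median spot signal, since the files hold no mean signal. Alternatives changed the scaling, source of values, background correction, filter, probe choice, outlier spots and samples.

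Values by sample are given for 12 genes whatever their result and would have been for members past the threshold, of which there were none; Slc25a15 and Slc25a41 were added after their values were seen; of each list of partner genes, those past the threshold and the 2 with the smallest p are named, except 1 gene that is not reported here. The members and lists were chosen with earlier results of these data known. On simulated data for old against young (23246 genes), the fit recovered 58.4% of 1-unit and 89.8% of 2-unit log2 changes, with 3.77% of calls false. Each of 5 draws had 200 changed genes and noise drawn for each gene by itself, with the genes' spreads shuffled. Error shared across an array was not simulated, so 3.77% is not the false share among the real calls.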

Additional observations from a re-analysis of the deposited data

How the results depend on the processing

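No Slc25a gene was called under 15 of the 16 alternatives; normexp called 2 (Slc25a15 and Slc25a41). The sign of 18 of the 40 members held under every alternative that tested them, and that of 22 turned under at least 1, none of them past the threshold in either direction. The count over all genes was 2883 with normexp and 0 without the filter on dim probes (11654 at an unadjusted p under 0.05). Leaving out 1 sample gave from 1 (without old replicate 2) to 1154 genes, so the adjusted total depends on single arrays. It was 768, 63 and 320 without young replicates 1 to 3, and 5 without old replicate 3. At an unadjusted p under 0.05 these fits gave 4959 to 6319 genes, against 6470 with all samples. With the replicate number as a block, 0 genes were called (5555 at an unadjusted p under 0.05), 0 members and 0 partner genes. The labels do not say whether the numbers pair the samples. Same-numbered deviations from the group means correlated over genes at -0.03, 0.017 and -0.009, which shows no broad pairing but cannot exclude one in some genes. The percentile over spots, added after seeing the data, gave 1953 genes, 0 members and 1 partner gene.

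The partner count of 1 became 0 with cyclic loess, the deposited table, no filter and each left-out sample, and 2 with normexp (Hadh, Mcu) and with the mean of all probes (Acly, Mcu). The count of pairs whose ratios do not overlap, 1, was 3 with quantile normalization and cyclic loess, 2 with the deposited table and normexp, and 1 to 5 with 1 sample left out. Of the calls over all genes, 49.6% were higher in old samples, against 42.0% with cyclic loess, 45.2% with quantile normalization, 39.0% with the deposited table, 61.9% with normexp and 59.9% when all 6 arrays had to be above background. These scalings put the median of all genes at 0.00, 0.02, -0.01 and 0.10 in the first 4 cases. Causes were not tested. Dim members are the least precise: the 5 not above background on all arrays had a median pooled SD of 0.35, against 0.11 for the other 35.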
